A study of Homo sapiens with 9 samples.

Results

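The genes described here are 9 transcription factors that govern the fate of keratinocytes, the main cells of the epidermis: TP63, KLF4, KLF5, GRHL1, GRHL2, GRHL3, OVOL1, ZNF750 and PRDM1. They were chosen by name for this role, with earlier results of these data known. All 9 were found among the 16199 genes listed in at least 1 library, and all 9 were among the 12394 genes with enough counts to be tested. RNA sequencing was performed on HaCaT, an established and spontaneously immortalized human keratinocyte line of a single origin. Cells grown to confluence were kept in serum-free medium without further addition (untreated, 3 libraries), with 10 nM EGF for 24 h (3 libraries) or with 1 µM bleogen pB1 for 24 h (3 libraries). EGF is the prototypic ligand of the EGF receptor, and bleogen pB1 is a small cystine-knot peptide of the cactus Pereskia bleo that acts on the same receptor. All cells were labelled as wild type and no group carried another agent. The comparisons asked which genes each ligand changed and how the responses to both ligands differed.

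In the epidermis, proliferating basal keratinocytes sit on the basement membrane, and their daughters differentiate as they move outward. The p63 protein keeps basal cells in the epithelial lineage and also primes them to differentiate. Krüppel-like, Grainyhead-like, OVO-like and zinc-finger factors act with it or after it, either keeping the epithelial state or switching on genes of the barrier. EGF receptor signalling in keratinocytes is known for favouring proliferation and migration and for restraining late differentiation.

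The libraries held between 20288417 and 21320994 expected counts, the read counts that the deposited tables assign to genes. Levels are given as CPM, the count scaled to a common library total, and as FPKM, which also divides by transcript length and so allows comparison between genes. The 10 markers of keratinocyte identity were all listed, and their summed level was 13120 to 14430 CPM in untreated cells, 13330 to 15220 CPM with pB1 and 13640 to 14630 CPM with EGF. The label of a keratinocyte line thus matched the markers, of which 4 rose and 3 fell with EGF and 1 rose with pB1. Of all tested genes 15.1% rose and 21.8% fell with EGF, and 0.218% rose with pB1. All 9 fate factors were above 0 in every library. Counts of 8 of the 9 were whole numbers in every library, whereas those of TP63 were fractional in all 9 libraries. Changes are log2 fold changes from edgeR's quasi-likelihood test, with standard errors (SE), intervals of 95% and p-values adjusted over all tested genes. A gene is called here when its adjusted p is at most 0.05 and its log2 fold change is at least 0.5 in either direction. Nothing in the labels says that the replicates were separate cultures, so p-values measure only the spread between these samples. In bulk RNA, fewer cells that express a gene and less of its RNA per cell cannot be told apart.

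In untreated HaCaT cells the fate factors spanned a wide range of FPKM. TP63 stood highest at 48.7 ± 1.72 FPKM (SD, n = 3), followed by KLF5 at 36.8 ± 1.78, GRHL2 at 25.4 ± 1.06 and KLF4 at 9.57 ± 0.0513 FPKM. OVOL1 lay at 3.47 ± 0.34 and GRHL3 at 1.14 ± 0.126 FPKM. GRHL1, ZNF750 and PRDM1 were below these, at 0.713 ± 0.261, 0.37 ± 0.0436 and 0.197 ± 0.0586 FPKM. Each gene in this order had all 3 libraries above those of the next gene. Of the FPKM summed over the 9 genes, TP63 held 38.5%, KLF5 29.1% and GRHL2 20.1%. The order was the same with pB1, again with no overlap between neighbours. With EGF, KLF5 moved ahead of TP63, at 78.9 ± 2.03 against 66.2 ± 9.49 FPKM, and its 3 libraries were all above those of TP63. Of the summed FPKM in EGF-treated cells, KLF5 held 43.3%, TP63 36.3% and GRHL2 8.67%. Neighbours whose EGF libraries overlapped in FPKM were GRHL2 and KLF4, GRHL3 and GRHL1, and PRDM1 and ZNF750.

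**Figure D1:**
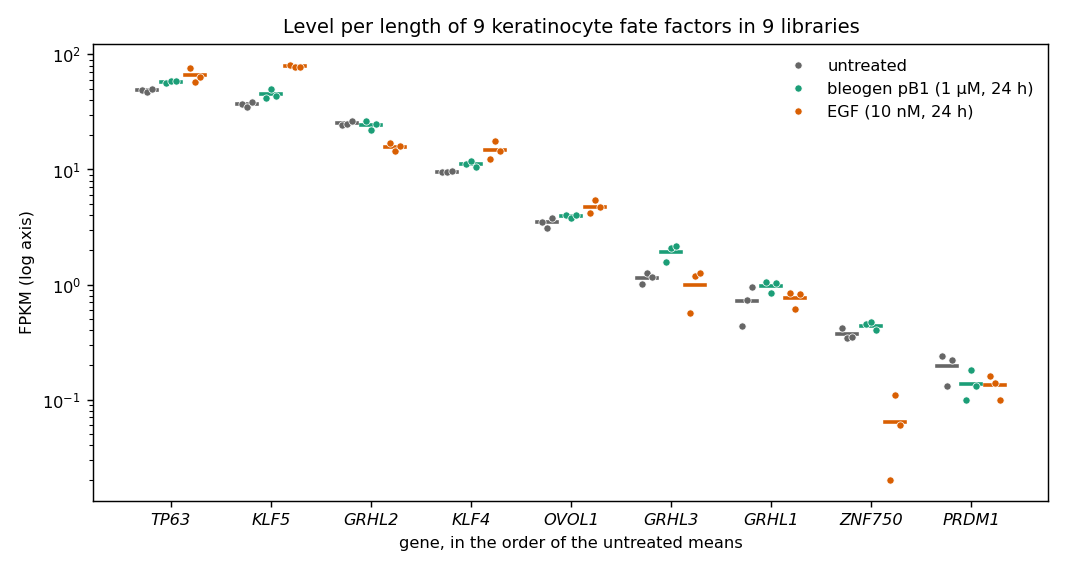
FPKM on a log axis for the 9 fate factors, with 1 point per library, a line at the mean of 3 libraries, and grey, green and orange for untreated, bleogen pB1 and EGF. The order from TP63 (48.7 FPKM in untreated cells) to PRDM1 (0.197 FPKM) was the same with pB1, whereas EGF placed KLF5 above TP63 and ZNF750 last.

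With EGF, 6 of the 9 fate factors were called against untreated cells, against 36.9% of all 12394 tested genes. KLF5, KLF4, OVOL1 and TP63 rose, which is 4 of 9 against 15.1% of all genes that rose, and GRHL2 and ZNF750 fell, 2 of 9 against 21.8%. ZNF750 was tested only because its untreated and pB1 libraries, where it was higher, passed the count filter. GRHL1, GRHL3 and PRDM1 were not called. The median log2 fold change was 0.16 over the 9 genes and -0.01 over all tested genes. Of the genes called with EGF, 41.0% rose, and with upper-quartile scaling factors 30.2% rose, while the median log2 fold change of all genes moved from -0.013 to -0.118. With pB1, 0 of the 9 were called by edgeR or by DESeq2, against 1.48% of all genes, of which 0.218% rose and 1.26% fell.

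**Figure D2:**
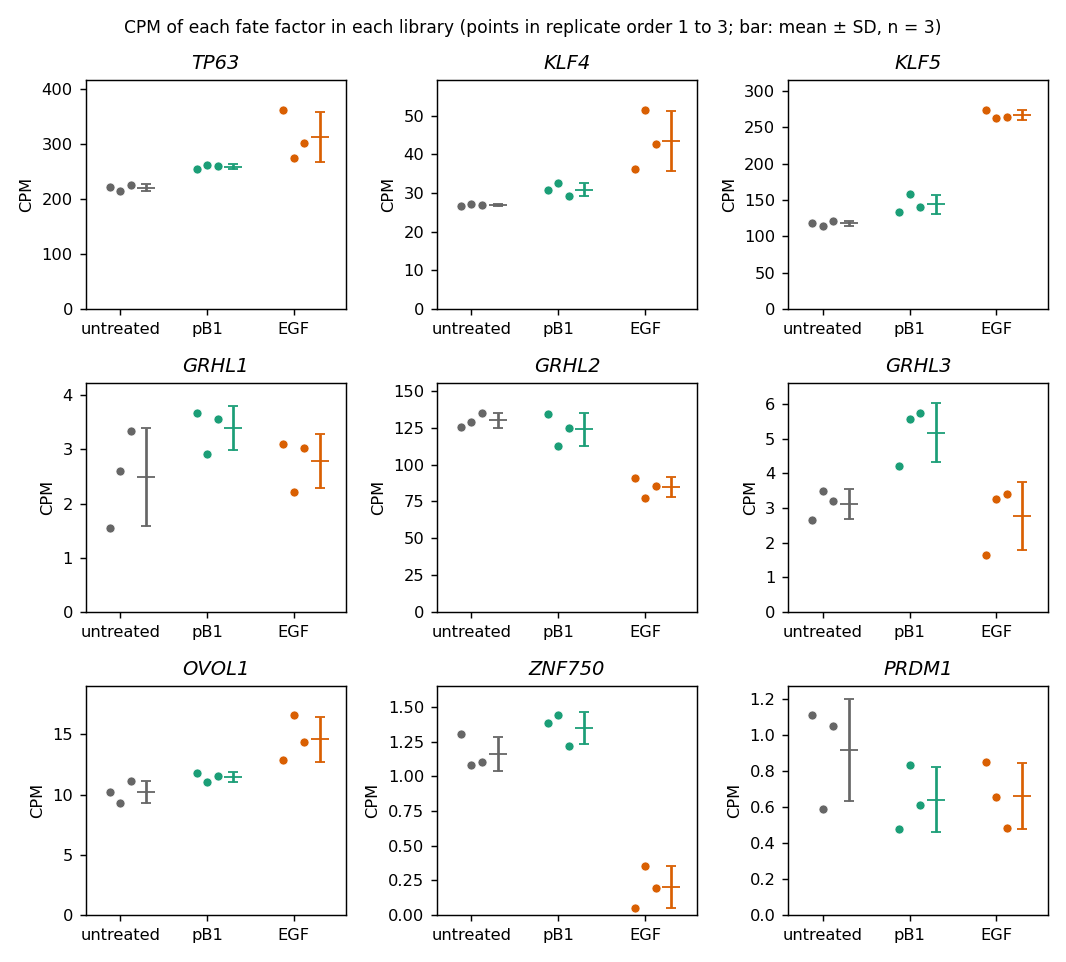
CPM of each fate factor in each library on a linear axis from 0, with points in replicate order 1 to 3 within a group and a bar for the mean ± SD (n = 3). EGF libraries of TP63, KLF4, KLF5 and OVOL1 are all above the untreated ones, those of GRHL2 and ZNF750 are all below, and GRHL1 and PRDM1 overlap between all groups.

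TP63 encodes p63, the master regulator of stratified epithelia, and lies on chromosome 3 at 189631389 to 189897276 (plus strand, GRCh38, GENCODE release 44). Its level in untreated libraries 1 to 3 was 222, 214 and 226 CPM, in EGF libraries 362, 274 and 302 CPM, and in pB1 libraries 254, 263 and 260 CPM. Both treatments had every library above every untreated one, and the EGF libraries were spread far more widely (SD 45.1 CPM) than the untreated (6.10 CPM) or pB1 libraries (4.54 CPM). EGF gave TP63 a log2 fold change of 0.50 (SE 0.08, interval 0.32 to 0.68, edgeR adjusted p = 0.00016), a 1.42-fold rise that sat at the limit for a call. The call was lost without EGF replicate 1 (log2 fold change 0.39), without untreated replicate 2 (0.48), with upper-quartile or no scaling factors (0.40 and 0.44), and with limma on FPKM (0.43). It was also lost when at least 10 counts in every library were required (0.49). With pB1 it was 0.23 (interval 0.05 to 0.41, edgeR adjusted p = 0.13) and was not called, although the adjusted p passed its limit when the EGF libraries were left out of the fit (0.027) or without EGF replicate 1 (0.030). TP63 has 2 well known promoters giving TAp63 and ΔNp63 proteins, which these gene totals do not separate. The mean transcript length that the tables assign to TP63 was 4623 to 4652 bases over the 9 libraries.

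KLF5 and KLF4 encode Krüppel-like zinc-finger factors that bind GC-rich and CACCC sequences. KLF5 is expressed in proliferating basal cells, and KLF4 is required for the skin barrier. KLF5 (chromosome 13, 73054976 to 73077541, plus strand) gave 118, 114 and 122 CPM in untreated libraries, 275, 263 and 264 CPM with EGF, and 134, 159 and 140 CPM with pB1. The groups did not overlap, and the EGF libraries were the highest. KLF5 had the largest rise of the 9 genes, with a log2 fold change of 1.18 with EGF (SE 0.07, interval 1.04 to 1.32, edgeR adjusted p = 1.6e-08), which is 2.26-fold. With pB1 it was 0.29 (SE 0.07, interval 0.15 to 0.43, edgeR adjusted p = 0.032), past the adjusted p limit but below the fold limit. In this fit of all 9 libraries no other fate factor passed the adjusted p limit with pB1. KLF5 itself missed that limit in 6 of 9 fits that left out 1 library (adjusted p = 0.068 to 0.15, without untreated replicate 1, 2 or 3, EGF replicate 3, or pB1 replicate 2 or 3) and in limma without a filter (0.074).

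KLF4 (chromosome 9, 107484852 to 107490482, minus strand) gave 26.7, 27.1 and 26.8 CPM in untreated libraries, 36.2, 51.6 and 42.6 CPM with EGF, and 30.8, 32.7 and 29.2 CPM with pB1. Untreated libraries were nearly level, both treatments lay above them without overlap, and the EGF libraries were spread the most. EGF raised KLF4 by a log2 fold change of 0.69 (SE 0.11, interval 0.46 to 0.93, edgeR adjusted p = 0.0001) or 1.62-fold. With pB1 the difference was 0.20 (interval -0.04 to 0.44, edgeR adjusted p = 0.30). The ratio of KLF5 to KLF4 in FPKM was 3.85 ± 0.182 in untreated cells, 4.04 ± 0.2 with pB1 and 5.46 ± 1.10 with EGF (SD, n = 3). In the EGF libraries this ratio ran from 4.42 to 6.61, so every one was above the untreated maximum of 4.01 and above the pB1 maximum of 4.19.

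The start regions of KLF5 and KLF4 are shown because both genes rose with EGF and because Krüppel-like factors bind the letters searched. RefSeq (GRCh38.p14) gave a window of 250 bases before the start for 6 of the 9 fate factors, and for 3 of these 6 there were 2 starts. Capitals mark each KLF core, CACCC or its reverse complement GGGTG.
KLF5, start at the 5′ end of the gene, chr13:73054726-73054975, plus strand: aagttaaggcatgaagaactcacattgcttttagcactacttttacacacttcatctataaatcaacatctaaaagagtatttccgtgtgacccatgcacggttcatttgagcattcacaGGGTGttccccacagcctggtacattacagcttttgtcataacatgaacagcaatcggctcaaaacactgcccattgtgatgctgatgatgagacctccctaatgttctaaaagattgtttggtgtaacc
KLF5, downstream start, chr13:73058755-73059004, plus strand: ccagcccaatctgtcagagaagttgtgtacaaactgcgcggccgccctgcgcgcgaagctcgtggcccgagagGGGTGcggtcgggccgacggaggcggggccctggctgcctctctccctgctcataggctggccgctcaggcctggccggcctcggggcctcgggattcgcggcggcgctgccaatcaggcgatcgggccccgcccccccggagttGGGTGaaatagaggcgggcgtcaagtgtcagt
KLF4, start, chr9:107489770-107490019, minus strand: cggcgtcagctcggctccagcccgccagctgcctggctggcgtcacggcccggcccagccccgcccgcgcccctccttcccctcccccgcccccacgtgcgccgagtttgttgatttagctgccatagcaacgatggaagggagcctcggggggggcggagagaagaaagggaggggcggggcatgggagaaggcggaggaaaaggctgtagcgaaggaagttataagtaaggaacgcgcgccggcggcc
The downstream KLF5 window was 70.8% G or C and held 2 KLF cores, whereas the upstream window was 40.8% G or C and held 1. The KLF4 window was 69.2% G or C and held no KLF core. A GC box, GGGCGG or its reverse complement CCGCCC, was present 4 times in the KLF4 window, 2 times in the downstream KLF5 window and not in the upstream one. Over 35116 RefSeq windows of this kind, 54.7% held a KLF core and 42.6% a GC box on either strand, and the median G and C content was 58.0%. Both motifs are thus common, and a match describes the letters only.

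OVOL1 is a zinc-finger repressor that promotes exit from proliferation and keeps epithelial cells from a mesenchymal state. OVOL1 (chromosome 11, 65787063 to 65797214, plus strand) gave 10.2, 9.28 and 11.1 CPM in untreated libraries, 12.9, 16.6 and 14.4 CPM with EGF, and 11.8, 11.04 and 11.6 CPM with pB1. EGF libraries were all above the others, while pB1 and untreated libraries overlapped. EGF raised OVOL1 by a log2 fold change of 0.51 (SE 0.12, interval 0.26 to 0.76, edgeR adjusted p = 0.0016) or 1.43-fold. The call was lost without EGF replicate 2 (0.42), without untreated replicate 2 (0.45), with upper-quartile or no scaling factors (0.41 and 0.46), and with limma on FPKM (0.36 to 0.44). With pB1 the log2 fold change was 0.17 (interval -0.09 to 0.42, edgeR adjusted p = 0.43).

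In FPKM as in CPM, the EGF library with the most TP63 (replicate 1) had the least KLF4 and OVOL1, and the one with the least TP63 (replicate 2) had the most of both. This order was seen after the values were known and rests on 3 libraries.

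The Grainyhead-like factors share a DNA-binding domain and differed from each other in level and in response. GRHL2, which maintains epithelial junction genes, was the most abundant of the 3 per length in every group. Its levels were 126, 129 and 135 CPM in untreated libraries, 90.9, 77.5 and 85.5 CPM with EGF, and 134, 112 and 125 CPM with pB1. All EGF libraries were below all others, and pB1 and untreated libraries overlapped. GRHL2 had a log2 fold change with EGF of -0.62 (SE 0.08, interval -0.78 to -0.45, edgeR adjusted p = 1.4e-05), which is 1.54-fold lower. With pB1 it was -0.07 (interval -0.23 to 0.09, edgeR adjusted p = 0.62). Since TP63 and KLF5 were higher and GRHL2 lower with EGF, the proportions between these 3 most abundant factors shifted. GRHL2 stood at 0.522 ± 0.0168 of TP63 in FPKM in untreated cells, 0.423 ± 0.0459 with pB1 and 0.241 ± 0.0171 with EGF (SD, n = 3). KLF5 stood at 1.45 ± 0.0526 times GRHL2 in untreated cells, 1.86 ± 0.331 with pB1 and 5.00 ± 0.301 with EGF. KLF5 stood at 0.756 ± 0.00985 of TP63 in untreated cells, 0.777 ± 0.0551 with pB1 and 1.21 ± 0.14 with EGF.

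GRHL3 drives late barrier formation in the epidermis. GRHL3 (chromosome 1, 24199558 to 24364482, plus strand) had 55, 71 and 67 counts in untreated libraries, 33, 65 and 71 with EGF, and 88, 120 and 123 with pB1. In CPM these were 2.65, 3.49 and 3.20, then 1.65, 3.27 and 3.42, then 4.20, 5.57 and 5.76. The pB1 libraries were all above the others, and EGF and untreated libraries overlapped, with EGF replicate 1 the lowest of all 9. The log2 fold change with pB1 was 0.73 (SE 0.24, interval 0.22 to 1.25), a 1.66-fold difference and the highest fold of the 9 genes with pB1. Its edgeR adjusted p was 0.096, so it was not called. It passed the limits when the 3 EGF libraries were left out of the fit (adjusted p = 0.035), without EGF replicate 1 (0.027) and without pB1 replicate 1 (log2 fold change 0.86, adjusted p = 0.042). With EGF the log2 fold change was -0.16 (interval -0.71 to 0.39, edgeR adjusted p = 0.59), and without EGF replicate 1 it was 0.11.

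GRHL1, which acts in the upper epidermis on desmosome genes, lies on chromosome 2 at 9951693 to 10002277 (plus strand). It ranged from 32 to 70 counts in untreated libraries, 44 to 63 with EGF and 63 to 77 with pB1, so all groups overlapped. The log2 fold change was 0.16 with EGF (interval -0.40 to 0.72, edgeR adjusted p = 0.61) and 0.44 with pB1 (interval -0.11 to 0.98, edgeR adjusted p = 0.34). These intervals reach beyond 0.5, so a change of the size required for a call is not excluded. Per length GRHL3 exceeded GRHL1 1.74 ± 0.544 times in untreated cells, 2.00 ± 0.478 times with pB1 and 1.37 ± 0.638 times with EGF, and in EGF replicate 1 it stood below it, at 0.679.

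ZNF750 is a zinc-finger factor that p63 induces and that switches on late differentiation genes, KLF4 among them. ZNF750 (chromosome 17, 82829434 to 82840022, minus strand) had 27, 22 and 23 counts in untreated libraries, 1, 7 and 4 with EGF, and 29, 31 and 26 with pB1. EGF libraries were far below all others, and pB1 and untreated libraries overlapped. The EGF counts were too low for the count filter, so ZNF750 was tested through the other groups. With at least 10 counts required in every library it was not tested. ZNF750 had a log2 fold change with EGF of -2.52 (SE 0.42, interval -3.42 to -1.61, edgeR adjusted p = 0.00016), the largest change of the 9 genes in either direction. Summed over 3 libraries the counts were 12 with EGF and 72 in untreated cells, a depth-corrected ratio of 5.86 to 1 with an interval from 3.16 to 11.9 that covers counting error only. Without EGF replicate 2, the library with 7 counts, the log2 fold change was -3.17, and without EGF replicate 1, with 1 count, it was -2.07. The log2 fold change with pB1 was 0.21 (interval -0.43 to 0.86, edgeR adjusted p = 0.71). The level of ZNF750 in untreated cells was already low, so on the log2(FPKM + 1) scale the EGF difference was only -0.37.

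PRDM1 encodes Blimp-1, a repressor that marks terminally differentiating cells of the outer epidermis. PRDM1 (chromosome 6, 105993463 to 106109939, plus strand) had 12 to 23 counts in untreated libraries, 10 to 17 with EGF and 10 to 18 with pB1. The groups overlapped. The log2 fold change was -0.47 with EGF (interval -1.24 to 0.29, edgeR adjusted p = 0.26) and -0.51 with pB1 (interval -1.27 to 0.25, edgeR adjusted p = 0.42). The counts leave room for a fall of more than 1 on the log2 scale in both comparisons.

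With pB1, 7 of the 9 genes had a higher mean CPM than in untreated cells, the exceptions being GRHL2 and PRDM1. TP63, KLF4, KLF5 and GRHL3 had all pB1 libraries above all untreated ones, and no gene had them all below. This was 44.4% of the 9 genes against 29.1% of all tested genes that did not overlap in either direction. With EGF these shares were 66.7% and 70.4%. At an unadjusted p under 0.05, KLF5, GRHL3 and TP63 passed with pB1, 3 of 9 against 22.2% of all tested genes. An exact permutation test of 3 against 3 libraries cannot give a p below 0.1, which these 4 genes reached with pB1.

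**Figure D3:**
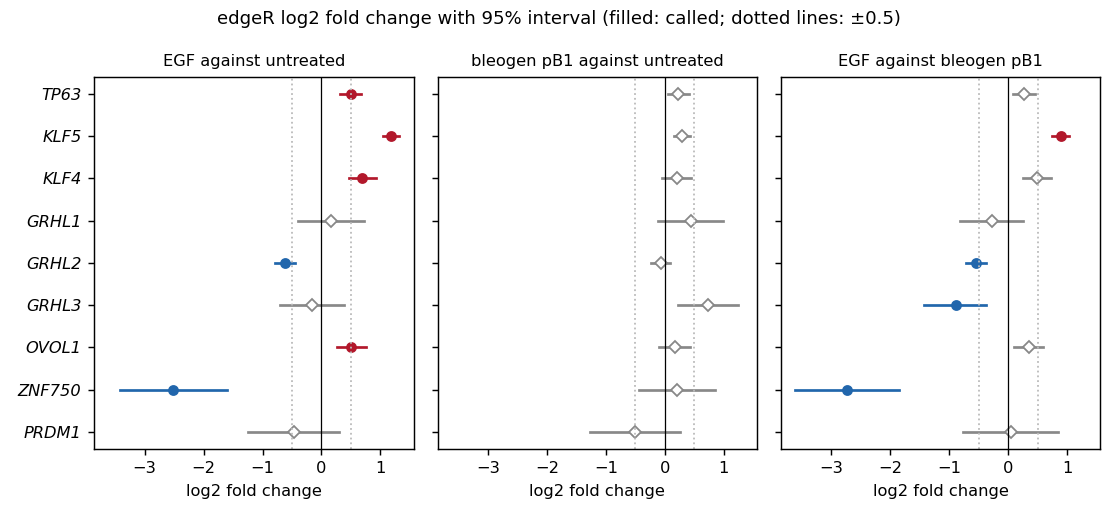
Log2 fold changes with intervals of 95% for the 9 fate factors in 3 comparisons, filled red for called rises, filled blue for called falls and open grey for genes not called, with dotted lines at the limits of 0.5 in either direction. Against untreated cells 6 genes were called with EGF and 0 with pB1, where GRHL3 had the highest estimate, 0.73. Comparisons that share a group share its libraries.

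The direct comparison of EGF with bleogen pB1 used the same EGF and pB1 libraries at the doses given, which differ, so the comparison holds for these doses. Of the 9 genes 4 were called, against 28.8% of all tested genes. KLF5 was higher with EGF (1 of 9 against 10.8%), and GRHL2, GRHL3 and ZNF750 were lower (3 of 9 against 18.0%). KLF5 was 1.85-fold higher with EGF (log2 fold change 0.89, SE 0.07, edgeR adjusted p = 2.6e-07). ZNF750 had 12 counts summed over the EGF libraries and 86 over the pB1 libraries (log2 fold change -2.73, SE 0.41, edgeR adjusted p = 0.0001), and the difference was -3.39 without EGF replicate 2 and -2.28 without EGF replicate 1. GRHL2 was 1.46-fold lower with EGF (log2 fold change -0.55, SE 0.08, edgeR adjusted p = 5.7e-05), a call lost without EGF replicate 2 (-0.48) or without pB1 replicate 1 (-0.49). GRHL3 was 1.86-fold lower with EGF (log2 fold change -0.89, SE 0.24, edgeR adjusted p = 0.0066), and its EGF and pB1 libraries did not overlap. TP63, KLF4 and OVOL1 passed the adjusted p limit but not the fold limit, with log2 fold changes of 0.27, 0.49 and 0.35 (edgeR adjusted p = 0.013, 0.0017 and 0.020), which makes 7 of 9 past the adjusted p limit alone against 58.2% of all tested genes. TP63 missed that limit with upper-quartile factors (0.063) and in all limma settings (0.086 to 0.13). OVOL1 missed it with upper-quartile factors (0.071), no scaling factors (0.058), all limma settings (0.066 to 0.11) and without EGF replicate 2 (0.072). KLF4 lay just below the limit and was called with DESeq2 (0.50), with RLE scaling factors (0.50), and without EGF replicate 1 (0.61), EGF replicate 3 (0.51) or pB1 replicate 2 (0.54). GRHL1 (-0.28, interval -0.82 to 0.26) and PRDM1 (0.04, interval -0.76 to 0.85) were not called, and PRDM1 turned to -0.05 with upper-quartile and -0.03 with no scaling factors.

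For each fate factor, the gene with the most similar pattern of log2 CPM over the 9 libraries was found by Pearson's r among all tested genes. This is a description, since the libraries share their groups, and r takes no account of level or size of change. For KLF5 it was EIF4A1, a helicase of translation initiation (r = 0.997), and 1248 genes reached r = 0.95. For GRHL2 it was OSBPL5, a lipid-binding protein (r = 0.998), with 1054 genes at r = 0.95 or above. OSBPL5 had a log2 fold change with EGF of -2.23, against -0.62 for GRHL2. ZNF750 was most like HPGD, the prostaglandin-degrading dehydrogenase (r = 0.994), which went from 50.6 CPM in untreated cells to 55.0 CPM with pB1 and 16.3 CPM with EGF. The closest to KLF4 was KCTD10 (r = 0.992), to TP63 EFTUD2, a spliceosome GTPase (r = 0.992), and to OVOL1 ZNF628 (r = 0.978). GRHL3 had 1 gene at r = 0.95 or above, HPF1, a cofactor of ADP-ribosylation (r = 0.979). For GRHL1 and PRDM1 no gene reached 0.95, and the closest were IP6K1 (r = 0.915) and HERC1 (r = 0.933). Within the 9 genes, the closest pair was KLF4 and OVOL1 (r = 0.941).

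Genes that work beside these factors or under them were taken from lists of known regulators and targets. Their counts stand against 36.9% of all tested genes called with EGF and 1.48% with pB1, and against 69.1% and 22.2% at an unadjusted p under 0.05. Of 21 other keratinocyte transcription regulators tested, 4 rose and 7 fell with EGF. With pB1 edgeR, DESeq2 and limma called 0 of these 21, of which 7 had an unadjusted p under 0.05 in edgeR, and without pB1 replicate 1 edgeR called 1. BNC1, the basal cell factor basonuclin, rose from 78.8 ± 2.00 to 204 ± 6.50 CPM with EGF, and KLF10, a relative of KLF4 and KLF5, from 30.3 ± 1.26 to 60.1 ± 6.67 CPM. ELF3, an ETS factor of differentiating epithelia, fell from 56.9 ± 2.43 to 8.03 ± 1.54 CPM. TP73, the sister gene of TP63, fell from 30.1 ± 2.78 to 7.26 ± 3.05 CPM. Of 13 basal and adhesion genes under p63, 5 rose and 6 fell with EGF. The integrins ITGA6 and ITGA3 were higher (log2 fold change 1.30 and 0.92), and FRAS1 and the basal keratin KRT5 were lower (-1.36 and -1.12). KRT14, the other keratin of this list, rose with EGF (0.88, edgeR adjusted p = 3e-07). With pB1 edgeR and DESeq2 called 0 of these 13, with 4 at an unadjusted p under 0.05, whereas limma called 1 in each of 3 settings and edgeR called 1 without untreated replicate 2 or without pB1 replicate 1. KRT14 and ITGA6 lay just under the fold limit with pB1, at 0.48 and 0.47 (edgeR adjusted p = 0.0017 and 0.0028), and KRT14 was named after its values were seen.

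Of 28 terminal differentiation genes 14 were tested, and of these 14, 3 rose and 5 fell with EGF. KRT1, the early suprabasal keratin, fell from 7.07 ± 1.45 to 0.414 ± 0.164 CPM with EGF, and its partner keratin KRT10 rose from 22.7 ± 2.38 to 35.9 ± 4.27 CPM. Involucrin (IVL) fell from 14.2 ± 1.16 to 0.906 ± 0.248 CPM. SPRR1B, a cornified envelope protein whose reads a near-identical copy may share, rose from 0.919 ± 0.27 to 12.1 ± 1.49 CPM. With pB1 2 of these 14 rose, SPRR1B (log2 fold change 1.27, edgeR adjusted p = 0.010) and KRT1 (0.83, edgeR adjusted p = 0.048), and without untreated replicate 3 there were 0. Of 9 epithelial genes under Grainyhead-like factors, 2 rose with EGF, claudins CLDN4 (log2 fold change 1.02) and CLDN7 (0.62), and 3 fell, among them E-cadherin CDH1 (-0.66) and ERBB3 (-0.97). With pB1 edgeR called 0 of these 9, with 5 at an unadjusted p under 0.05. Of 8 mesenchymal genes 4 were tested, and edgeR called 0 of these 4 with either ligand. At an unadjusted p under 0.05 there were 2 with EGF and 1 with pB1. The 2 with EGF also passed the adjusted p limit, as falls short of the fold limit. They were CDH2 (-0.42, edgeR adjusted p = 3e-05) and FN1 (-0.34, edgeR adjusted p = 0.0031). With upper-quartile factors 1 of these 4 was called with EGF. DESeq2 and limma called 0 of the 9 epithelial genes with pB1 and 0 of the 4 mesenchymal genes with either ligand.

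**Figure D4:**
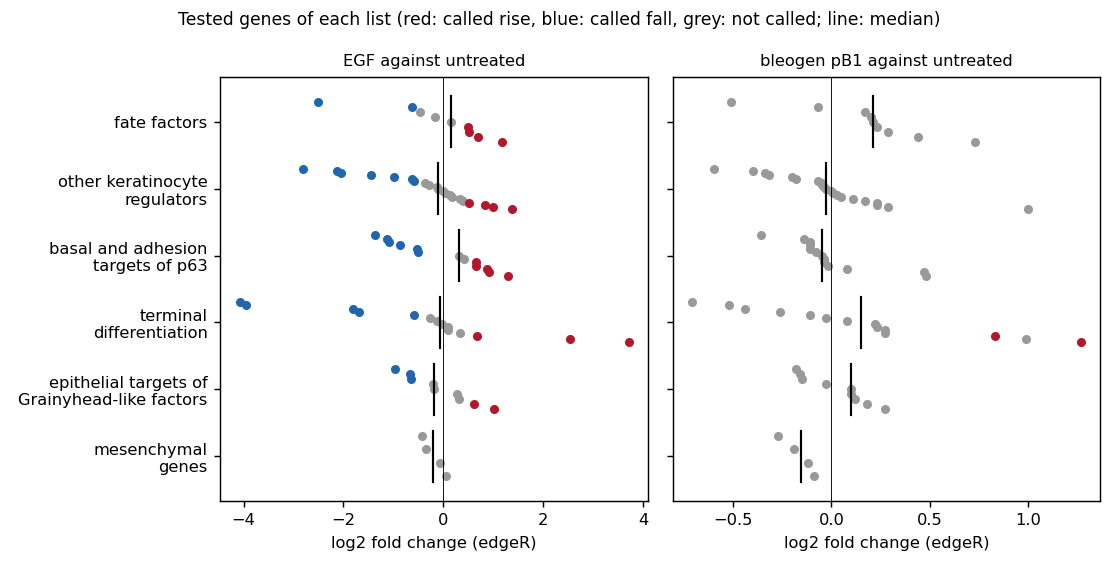
Log2 fold changes of the tested genes of each list with EGF (left) and bleogen pB1 (right) against untreated cells, on axes of different range, in red for called rises, blue for called falls and grey for genes not called, with a line at the median of the list. EGF moved genes of 5 lists in both directions, with 4 rises and 2 falls among the fate factors, whereas with pB1 the called genes were 2 terminal differentiation genes.

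Of 14 markers of other cell types that skin preparations can hold, 13 were listed and 6 passed the count filter. Their summed level was 22.0 to 24.6 CPM in untreated cells, 18.8 to 23.7 CPM with pB1 and 21.9 to 24.0 CPM with EGF. With EGF 5 of the 6 fell, against 21.8% of all tested genes, and 1 rose, against 15.1%. Among the falls were the fibroblast collagens COL1A1 (2.96 ± 0.457 to 0.926 ± 0.369 CPM) and COL3A1 (4.87 ± 0.387 to 0.611 ± 0.0883 CPM). The lysosomal marker CD68 rose (11.8 ± 0.318 to 20.2 ± 1.14 CPM). CD68 held the largest share of the summed level, which therefore did not show the 5 falls. DCN and VWF, also among the falls, were too low with EGF (0.016 and 0.281 CPM) for the count filter. These 2 genes were thus tested only through the other groups, where they were higher. With pB1 edgeR called 0 of the 6, and none had an unadjusted p under 0.05. The markers named here were picked after their values were seen. The melanocyte gene TYR was not listed, the melanocyte gene DCT was at 0 in untreated and pB1 libraries, and LUM and KRT20 were at 0 in EGF libraries. The part of these genes in the results on the fate factors was not tested.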

How the data were processed

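Poly(A) RNA of HaCaT cells was sequenced from dUTP (strand-marking) libraries in 9 samples. The deposited tables give, per gene and per the file headers, an expected count, an FPKM value and a mean transcript length. The authors had reads mapped to GRCh38.p12 at a sequencing company. The counting program and its use of strand are not given in the sources used here, so reads from antisense neighbours may be included. The expected counts were rounded and tested in edgeR 4.0.16 with filterByExpr, TMM factors (0.9635 to 1.0238), a quasi-likelihood fit over all 9 libraries and Benjamini-Hochberg adjustment over 12394 genes. A call needed an adjusted p of at most 0.05 and a log2 fold change of at least 0.5. The fate factors and lists were chosen with earlier results of these data known. Named beside the 9 factors was the gene most like each by Pearson's r. Named per list were up to 2 rises and 2 falls largest with EGF, among genes of at least 50 counts on average. Up to 3 genes called with pB1 were also named per list. Markers, KRT14, CDH2, FN1 and genes named for the count filter were picked after their values were seen. The FPKM values the authors deposited were used for levels and, as log2(FPKM + 1) or log2(FPKM + 0.1), in limma 3.58.1. DESeq2 1.42.0 was a further alternative. The tests were also run on simulated data with far fewer changed genes than were called with EGF. That run therefore says nothing on calls near the fold limit. A count of 3 corresponds to 0.1407 to 0.1479 CPM. Intervals on counts cover counting error only. Gene positions are from GENCODE release 44 and start windows from RefSeq.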

Additional observations from a re-analysis of the deposited data

How the results depend on the processing

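The number of fate factors called with EGF against untreated cells was 6, and it fell to 2 at a log2 fold change of at least 1. It was 3 with limma on log2(FPKM + 1), on log2(FPKM + 0.1) and without an FPKM filter. Where limma used the FPKM filter, GRHL1, ZNF750 and PRDM1 were not tested. Without that filter ZNF750 was tested and stood below the fold limit (-0.37). The number called was 4 to 6 when any 1 library was left out. With pB1 it was 0, and it was 1 by adjusted p alone (KLF5), 1 when only the 6 libraries compared were fitted (GRHL3), and 0 to 1 when any 1 library was left out. For EGF against pB1 it was 4, with 7 by adjusted p alone and 1 at a log2 fold change of at least 1.

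Fate factors that changed sign were never past the limits. GRHL1 with EGF ran from -0.10 to 0.43 and GRHL3 with EGF from -0.34 to 0.11 when 1 library was left out. PRDM1 for EGF against pB1 was -0.05 with upper-quartile factors, -0.03 with no scaling factors, -0.00 with limma without a filter and -0.17 to 0.28 when 1 library was left out. The causes of these sign changes were not tested. ZNF750 for EGF against pB1 kept its sign but was only -0.44 with limma on log2(FPKM + 1) without a filter. Its mean FPKM, 0.44 with pB1 and 0.0633 with EGF, lay below the 1 that this scale adds.

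Deviations from the group means were correlated between libraries of the same replicate number. The correlations were 0.004 to 0.045 for EGF and untreated, -0.03 to 0.207 for pB1 and untreated, and 0.027 to 0.056 for EGF and pB1. For pB1 and untreated libraries of different numbers they ran from -0.253 to 0.163. All were small, and pairing by replicate number was not tested. With the replicate number as a block, 1 fate factor was called with pB1, GRHL3 (log2 fold change 0.73, edgeR adjusted p = 0.05), and TP63 with EGF fell just below the fold limit.

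The 8 terminal differentiation genes called with EGF became 5 when at least 10 counts in every library were required, and the 2 called with pB1 became 0 to 3 when 1 library was left out. Counts of 12 over 3 libraries for ZNF750 and 40 to 57 for PRDM1 set the precision of these genes.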
